A study of Homo sapiens with 23 samples.

Results

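The 60 genes described here are the members of the MAP kinase cascade and of the ATF/CREB family that the RNA-seq tables of c-JUN-targeted thalamus organoids (ThOs) list. They were taken by name: every symbol that starts with MAPK, MAP2K, MAP3K, MAP4K, DUSP, ATF or CREB followed by a digit, with ATF3 left out, which gave 60 of the 9497 genes in the tables. The names cover 4 MAP4K, 13 MAP3K, 6 MAP2K and 10 MAP kinase genes, 5 scaffold or other genes caught by their name, 6 MAP kinase phosphatases, 6 atypical dual-specificity phosphatases (DUSPs), 6 ATF factors and 4 CREB factors. Another 30 protein-coding names in RefSeq match the rule, among them MAP3K5, MAPK11, MAPK12, DUSP5, DUSP10 and ATF5, and were not analysed here.

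ThOs are three-dimensional cultures steered towards thalamic tissue, and all came from the H1 human embryonic stem cell line under the same guided protocol. That protocol used SMAD inhibitors in the early neural medium and, in the patterning medium, BMP7 together with PD325901, an inhibitor of the MEK kinases that MAP2K1 and MAP2K2 encode, so libraries of every group had been through MEK inhibition at an earlier culture stage. WT is the unedited line, KO the line in which c-JUN (gene symbol JUN) was targeted with CRISPR/Cas9, and OE the knockout line carrying a doxycycline-induced c-JUN plasmid. Each genotype was collected at day 25 and at day 30 as 2 libraries of 3 pooled organoids, 12 libraries in all, and the labels do not say which of the knockout lines a KO library came from. The labels name the tissue and cell type as embryonic stem cells; of 7 pluripotency markers the tables list 1 (DNMT3B), whereas 8 of 8 neuronal and 3 of 8 thalamic markers are listed. A marker that is not listed may still be expressed in some libraries, because the tables hold only genes above 10 in all of them.

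MAP kinase cascades carry signals through kinases that phosphorylate each other in order: a MAP4K or a small GTPase engages a MAP3K, the MAP3K activates a MAP2K, and the MAP2K activates the MAP kinase. The ERK arm runs through MAP2K1 and MAP2K2 to the ERK kinases, MAPK3 among them, and serves growth factors such as FGFs, the JNK arm runs through MAP2K4 and MAP2K7 to MAPK8, MAPK9 and MAPK10 and phosphorylates c-JUN, and the p38 arm runs through MAP2K6 to MAPK14. DUSPs switch the kinases off again, and several of their genes are transcribed in response to the same cascade, which makes their mRNA a common readout of it. ATF and CREB factors are basic leucine zipper proteins that bind the cAMP response element (CRE), some of them as partners of c-JUN. These assays measured mRNA, so they hold no value for the phosphorylation of any kinase.

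RefSeq (GRCh38.p14) gives a promoter, 250 bases before to 50 bases after the start site, for 52 of the 60 members. The palindromic CRE TGACGTCA stood in the promoters of 6 members (11.5%), against 1.98% of 27305 promoters of that length and 3.63% of the 7817 listed genes with a promoter. The AP-1 motif TGANTCA, searched in the same way on both strands and contained in no CRE, stood in 1 member's promoter (ATF6B, 1.92%), against 7.76% of all promoters and 3.86% of those of listed genes. The following stretches, written on the strand of the gene and ending before its start site, show the CRE in capitals in the members that hold it, which include 2 phosphatases, a JNK kinase with its scaffold, an upstream kinase and a CREB factor. The last line is the stretch up to the start site of DUSP6, the member to which most of the results below return; neither motif occurs in it.
MAPK10 (chr4:86360099-86360158, minus strand): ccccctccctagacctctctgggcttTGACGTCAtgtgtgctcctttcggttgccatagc
MAP3K13 (chr3:185282831-185282890, plus strand): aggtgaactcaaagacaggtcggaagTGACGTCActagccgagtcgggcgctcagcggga
MAPK8IP3 (chr16:1706062-1706121, plus strand): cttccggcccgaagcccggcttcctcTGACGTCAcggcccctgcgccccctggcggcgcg
DUSP1 (chr5:172771287-172771346, minus strand): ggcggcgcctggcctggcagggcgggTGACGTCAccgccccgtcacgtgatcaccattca
DUSP8 (chr11:1572334-1572393, minus strand): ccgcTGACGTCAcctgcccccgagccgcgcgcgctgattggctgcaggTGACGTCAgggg
CREB3L2 (chr7:138002232-138002291, minus strand): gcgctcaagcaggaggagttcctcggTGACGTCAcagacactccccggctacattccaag
DUSP6 (chr12:89352502-89352601, minus strand): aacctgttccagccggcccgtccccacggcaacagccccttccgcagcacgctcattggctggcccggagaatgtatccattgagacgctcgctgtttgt
The matches are a description of letters and not of binding. For MAPK10, the RefSeq start site used lies inside the gene as deposited (chr4:85990007-86594625, minus strand) and not at its outer end. In KO against WT, 3 of the 6 CRE-bearing members were higher and 3 lower, with log2 fold changes from -0.69 (MAP3K13) to 0.44 (DUSP8).

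The values are normalized expression scores rounded to whole numbers, with the same lowest value (11), median (106) and highest value (9910) in every library, so sequencing depth is unknown and a value is comparable for 1 gene across libraries, not between genes. Replicates agreed less in KO than elsewhere: the rank correlation of the pair over all genes was 0.821 for the KO pair of day 25 and 0.769 for that of day 30, against 0.936 to 0.959 in the other groups. JUN mRNA did not follow the order of the labels. A small frameshift made by CRISPR/Cas9 need not lower the mRNA of its gene, so the level of JUN mRNA does not by itself test the knockout. The paper reported, by RT-qPCR, no c-JUN mRNA in its KO groups during neural progenitor and cerebral organoid induction. Its western blots showed no c-JUN protein in the KO lines, and overexpressed c-JUN in KO lines given doxycycline. In ThOs of day 25, its ATAC-seq gave more accessible chromatin at c-JUN in WT and OE than in KO. The JUN values here, from ThOs, differ from that RT-qPCR result, and the reason was not tested. JUN read 139, 153, 128 and 162 in the libraries labelled WT, 353, 196, 222 and 248 in those labelled KO, and 224, 212, 362 and 202 in those labelled OE (each as 2 values of day 25 and 2 of day 30). JUN was thus higher in every KO library than in any WT library (exact permutation test, two-sided, p = 0.0286, the smallest that 4 against 4 allows), and OE and KO did not differ detectably (p = 0.886). WT, KO and OE below therefore mean libraries with that label.

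All 60 members had a value in all 12 libraries, as did all 9497 listed genes, and they varied about as much as other genes. The highest value of a member was a median of 2.42 times its lowest (2.47 for all genes). The median standard deviation over the 12 libraries was 0.355 on the log2 scale for the members and 0.373 for all genes. By role it was 0.237 for the scaffolds and 0.273 for the MAP kinases, and it reached 0.515 for the MAP kinase phosphatases and 0.555 for the CREB factors. MAP2K4, the JNK activator, was among the steadiest members (132 to 190 over all libraries), as was the MEK gene MAP2K2 (292 to 445). The members that spread the most were DUSP6 (12 to 122), MAP3K19 (20 to 266) and CREB1 (24 to 282).

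**Figure D1:**
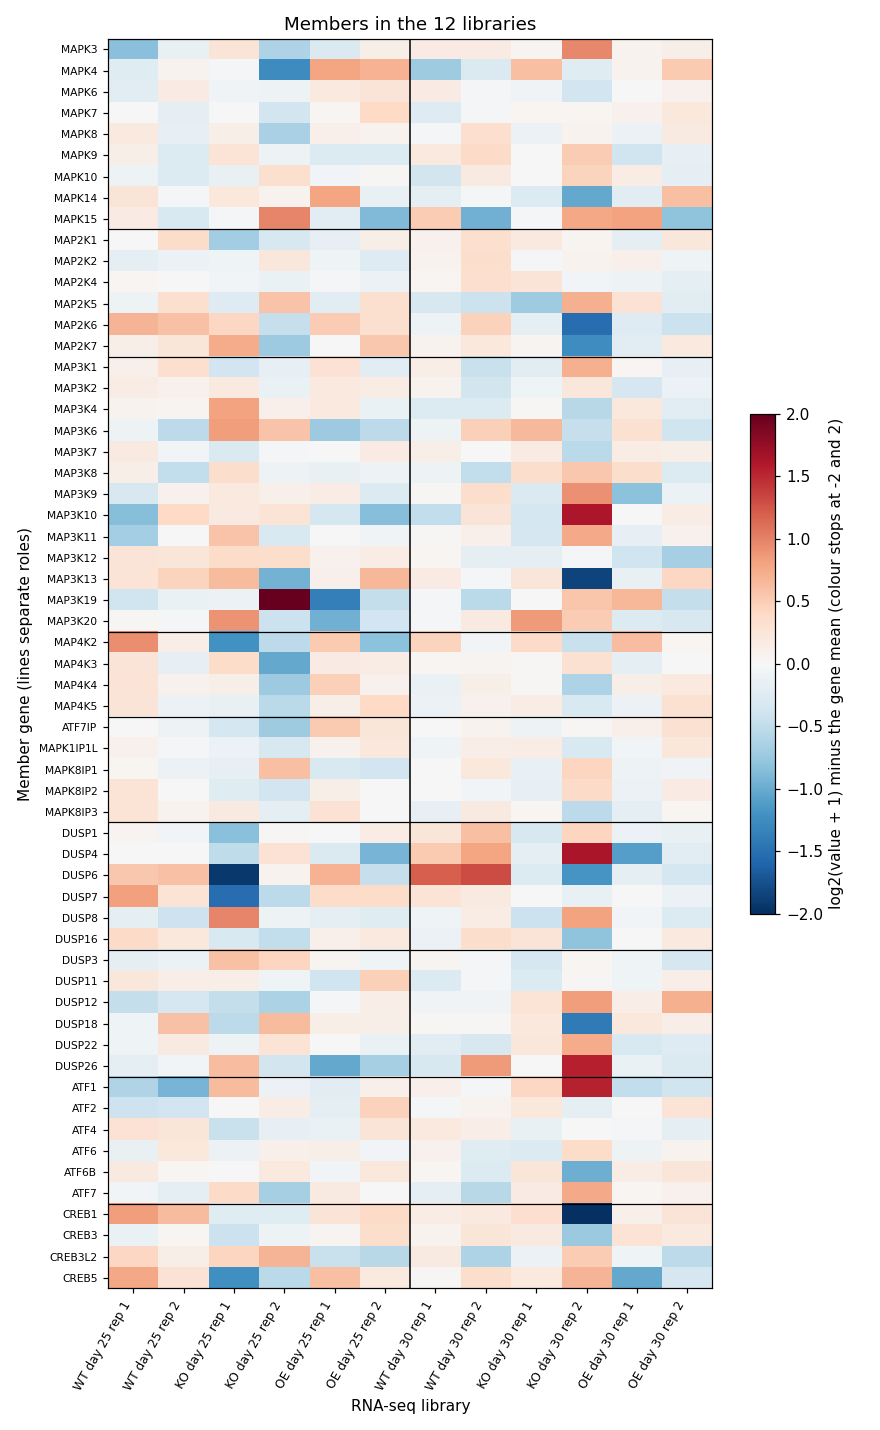
Each row is 1 of 59 plotted members and each column a library; colour is log2(value + 1) minus the member's mean over the 12 libraries, and black lines separate the roles, from MAP kinases at the top to CREB factors at the bottom. The KO day 30 replicate 2 column holds the highest value of 18 and the lowest value of 13 of these members, more of each than any other column.

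Much of that spread lay between the paired KO libraries. The replicates were at least 2-fold apart for 11 members (18.3%) in the KO pair of day 25 and for 16 members (26.7%) in that of day 30, against 1 or 2 members in each other group. The members were not apart from the rest of the tables in this respect, since 17.4% and 21.5% of all genes were 2-fold apart in the same pairs. KO day 30 replicate 2 held the highest value of 23.9% and the lowest of 23.0% of all genes. MAP3K19, a little-studied MAP3K, read 266 in KO day 25 replicate 2 and 20 to 85 in the other 11 libraries. CREB1, the CREB factor itself, read 24 in KO day 30 replicate 2 and 132 to 282 elsewhere.

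Against this spread, no member passed the threshold (limma, adjusted p under 0.05 and at least 2-fold) in any of the 11 comparisons of genotypes and days. For KO against WT, averaged over both days, 0 of 60 members were called, where 0.0211% of all genes were; 8 members had an unadjusted p under 0.05, 1 higher and 7 lower, where 15.2% of all genes did (7.01% higher and 8.16% lower). For OE against KO over both days, 0 of 60 were called, where 2.22% of all genes were, and 15 had an unadjusted p under 0.05, 6 higher and 9 lower, where 22.2% of genes did (11.5% higher and 10.7% lower). For OE against WT over both days, 0 of 60 were called, where 0.158% of all genes were, and 4 had an unadjusted p under 0.05, where 8.21% of genes did. The members' counts lay near the shares of all genes, which are read here as the background. Over both days their median log2 fold change for KO against WT was -0.0038 (all genes -0.022), and 47 of 60 lay within 0.5 of zero.

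Day by day the picture was the same. For KO against WT at day 25, 0 of 60 members were called (0.0105% of all genes) and 10 had an unadjusted p under 0.05, 3 higher and 7 lower (13.4% of all genes, 6.03% higher and 7.39% lower); DUSP7, CREB5 and ATF4 led them. At day 30, 0 were called (0.0% of all genes) and 5 had such a p (7.36%), with DUSP6 first. For OE against KO, 0 were called at day 25 (0.274% of all genes) and at day 30 (0.0842%), and 8 and 5 had an unadjusted p under 0.05 (17.8% and 10.9%). For OE against WT, 0 were called at day 25 (0.0% of all genes) and at day 30 (0.0316%), and 3 and 2 had such a p (4.18% and 4.07%), the 2 at day 30 being the ERK phosphatases DUSP6 at -1.52 and DUSP4 at -1.32.

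**Figure D2:**
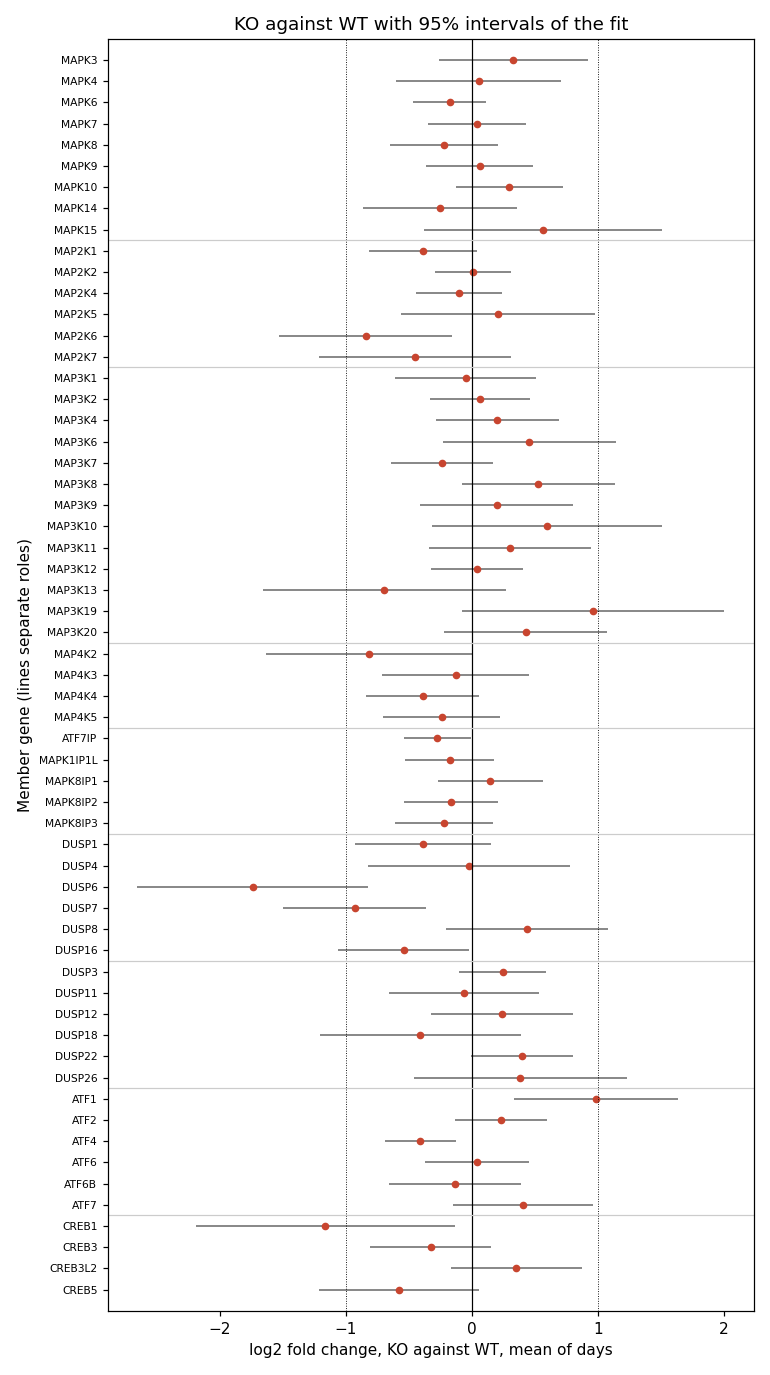
Points are the log2 fold changes of the same 59 members for KO against WT, averaged over the days, with the 95% intervals of the limma fit as lines; dotted lines mark a 2-fold change and grey lines separate the roles. DUSP6 at -1.74 lies farthest from zero, and the intervals of the plotted MAP kinases all include zero.

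For the kinases at the top of the cascade, the median size of the log2 fold change between KO and WT was 0.32 for the MAP4K and 0.31 for the MAP3K genes (0.245 for all genes). The 4 MAP4K genes, Ste20-like kinases, were all lower in KO than in WT, by log2 values from -0.13 to -0.81, and none had an unadjusted p under 0.05 over both days. MAP4K4 read 600, 528, 455 and 542 in WT, 538, 300, 506 and 323 in KO and 690, 528, 542 and 572 in OE. In both KO pairs the second replicate was the low library, and the ranges of KO and WT overlapped. Of the 13 MAP3K genes, 10 were higher and 3 lower in KO, with a median of 0.20, values from -0.69 (MAP3K13) to 0.96 (MAP3K19) and none at an unadjusted p under 0.05 over both days. MAP3K20 (ZAK), which senses stalled ribosomes and feeds JNK and p38, read 48, 46, 46 and 54 in WT, 89, 35, 86 and 68 in KO and 24, 36, 39 and 38 in OE. Every OE library lay below every WT library. Its log2 fold change was -0.94 ± 0.29 (SE) for OE against KO (limma, adjusted p = 0.101), and without KO day 25 replicate 2, the KO library at 35, it was -1.27 (adjusted p = 0.0254), whereas without KO day 25 replicate 1, at 89, it was -0.61 (adjusted p = 0.144).

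Of the MAP2K genes, MAP2K6, the p38 activator, had the smallest p. It read 100, 94, 58 and 86 in WT, 83, 45, 55 and 21 in KO and 89, 78, 52 and 46 in OE. All KO libraries but the first lay below every WT library, and at each day both OE values lay below both WT values. The log2 fold change for KO against WT was -0.84 ± 0.31 (SE; limma, adjusted p = 0.254). It moved with the KO pair of day 30: it was -0.51 (adjusted p = 0.486) without replicate 2, the library at 21, and -1.18 (adjusted p = 0.0196), which is called, without replicate 1. MAP2K7, the other JNK activator, showed how wide the KO pairs were: it read 170 and 61 at day 25 and 105 and 42 at day 30 in KO, against 106 to 120 in the WT libraries.

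The JNK arm, which acts directly on c-JUN, had no gene called in mRNA between KO and WT. MAPK8 read 264, 206, 224 and 293 in WT, 252, 147, 214 and 244 in KO and 248, 244, 214 and 262 in OE. The ranges overlapped in all pairs of genotypes, and the same held for MAPK10, the JNK gene found mainly in neurons. For KO against WT the log2 fold changes were -0.22 for MAPK8 (95% interval -0.65 to 0.21), 0.06 for MAPK9 (-0.36 to 0.49), 0.30 for MAPK10 (-0.13 to 0.72), -0.10 for MAP2K4 (-0.45 to 0.24) and -0.45 for MAP2K7 (-1.22 to 0.31). Apart from MAP2K7, each of these intervals excludes a 2-fold change in either direction; the sign of the MAPK9 value turned with 3 single libraries left out. With single libraries left out, MAPK8 ran from -0.41 to -0.03 and MAP2K7 from -0.82 to -0.09 (without KO day 25 replicate 1 and 2), MAPK10 from 0.16 to 0.44 (without WT day 30 replicate 1 and 2) and MAP2K4 from -0.18 to -0.03 (without KO day 30 replicate 1 and 2), and none was called. MAPK9 stood lower in OE: 96, 96, 88 and 104, against 140, 108, 116 and 166 in KO and 126, 96, 133 and 152 in WT. The OE and KO libraries did not overlap, yet the difference of -0.44 ± 0.19 (SE) was not called (limma, adjusted p = 0.207).

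**Figure D3:**
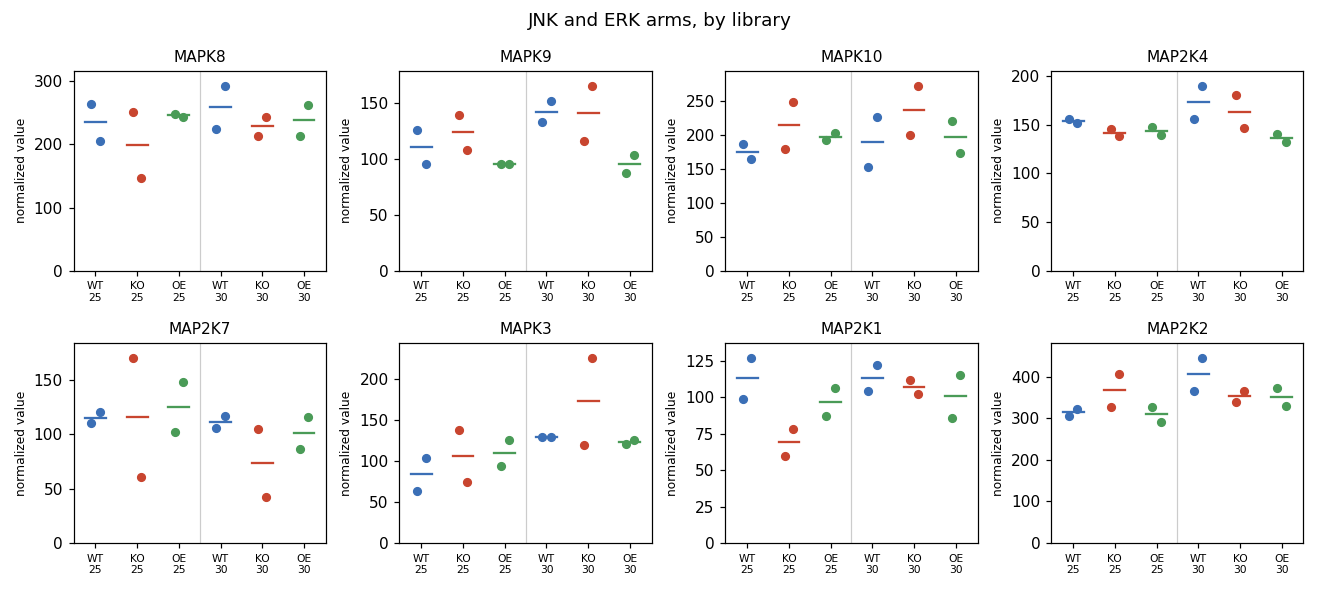
Each panel shows a kinase of the JNK arm (MAPK8, MAPK9, MAPK10, MAP2K4, MAP2K7) or the ERK arm (MAPK3, MAP2K1, MAP2K2); the y axis is the normalized value from 0, points are the 2 libraries of each genotype and day, and bars are their mean. The WT, KO and OE points overlap in most panels, with the OE mean lowest for MAPK9 at both days.

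In the ERK arm, MAPK3 read 64, 104, 129 and 130 in WT, 138, 75, 120 and 226 in KO and 94, 126, 121 and 126 in OE, a log2 fold change for KO against WT of 0.33 (95% interval -0.26 to 0.92). Its KO day 30 replicate 2 library stood alone at 226, with the other 11 libraries between 64 and 138. Of the MEK genes, MAP2K2 was at 0.01 (-0.29 to 0.31), its sign turning with 4 single libraries left out, and MAP2K1 at -0.39 (-0.82 to 0.04), with 60 and 78 in KO at day 25 against 99 and 127 in WT and no such gap at day 30. MAPK6, an atypical MAP kinase, and MAPK7 (ERK5), which MAP2K5 activates, were higher in every OE library than in any KO library, MAPK7 also than in any WT library, at log2 fold changes for OE against KO of 0.29 and 0.26. MAPK4, an atypical MAP kinase too, read 132, 124, 80 and 110 in OE, 64, 80, 46 and 62 in WT and 74, 31, 116 and 64 in KO. Its difference of 0.82 ± 0.30 (SE) for OE against WT had the smallest p of the members in that comparison and was not called (limma, adjusted p = 0.486).

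The MAP kinase phosphatases had larger differences between KO and WT than the kinases they act on, with a median size of 0.49 on the log2 scale against 0.20 for the MAP kinases (0.245 for all genes). This was not particular to KO against WT. Their median size was also larger for OE against KO (0.60 against 0.28) and OE against WT (0.23 against 0.15). They also varied more over the 12 libraries (median standard deviation 0.515 against 0.273). The CREB factors had a median size of 0.47 for KO against WT. Of the 6 MAP kinase phosphatases, 5 were lower in KO than in WT, 3 of them at an unadjusted p under 0.05, where 8.16% of all genes were lower at that p; the median log2 fold change was -0.46. DUSP6 (chr12:89347235-89352501, minus strand), the cytoplasmic phosphatase that acts on ERK and is itself induced by ERK signalling, read 71, 74, 113 and 122 in WT. In KO it read 12, 51, 40 and 21, and in OE 80, 35, 43 and 38. Every KO library lay below every WT library; at day 25 the OE libraries fell on both sides of WT, and at day 30 both lay within the range of the 4 KO libraries. The log2 fold change for KO against WT was -1.74 ± 0.42 (SE; 95% interval -2.65 to -0.82), to 0.300 of the WT level, and limma gave an adjusted p of 0.176, so it was not called. It was -1.50 at day 25 and -1.98 at day 30. The KO value of 12 lies close to 11, the lowest value of any gene in any library. Without KO day 25 replicate 1, the library at 12, the log2 fold change for KO against WT over both days was -1.24. Without KO day 25 replicate 2 it was -2.24. Without KO day 30 replicate 1 and 2 it was -1.96 and -1.515. For OE against WT it was -0.98 (95% interval -1.90 to -0.06; adjusted p = 0.562), and for OE against KO 0.76 (-0.16 to 1.67; adjusted p = 0.309).

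DUSP7 (chr3:52048919-52056571, minus strand), a close relative that also acts on ERK, read 85, 58, 58 and 54 in WT, 16, 33, 48 and 43 in KO and 62, 62, 48 and 44 in OE. Every KO library again lay below every WT library, by a wide margin at day 25 and a narrow one at day 30. The log2 fold change was -0.93 ± 0.26 (SE; limma, adjusted p = 0.193) over both days, -1.57 at day 25 and -0.29 at day 30; the difference between the days was 1.27 ± 0.52 (SE; adjusted p = 0.802). DUSP16, which acts on JNK and p38, was at -0.54 and DUSP1, the immediate-early nuclear phosphatase, at -0.39 (95% interval -0.93 to 0.15). DUSP8, another JNK and p38 phosphatase, was at 0.44, the value of the KO libraries being 234, 110, 88 and 208 against 89 to 132 in WT. DUSP4, the nuclear ERK phosphatase, was lower in every OE library (152, 97, 86 and 159) than in any WT library (184, 186, 268 and 320), while KO ran from 130 to 580; OE against WT was -0.96 ± 0.36 (SE; limma, adjusted p = 0.495). The 6 atypical DUSPs, which lack the kinase-binding domain, ranged from -0.41 (DUSP18) to 0.40 (DUSP22) for KO against WT.

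**Figure D4:**
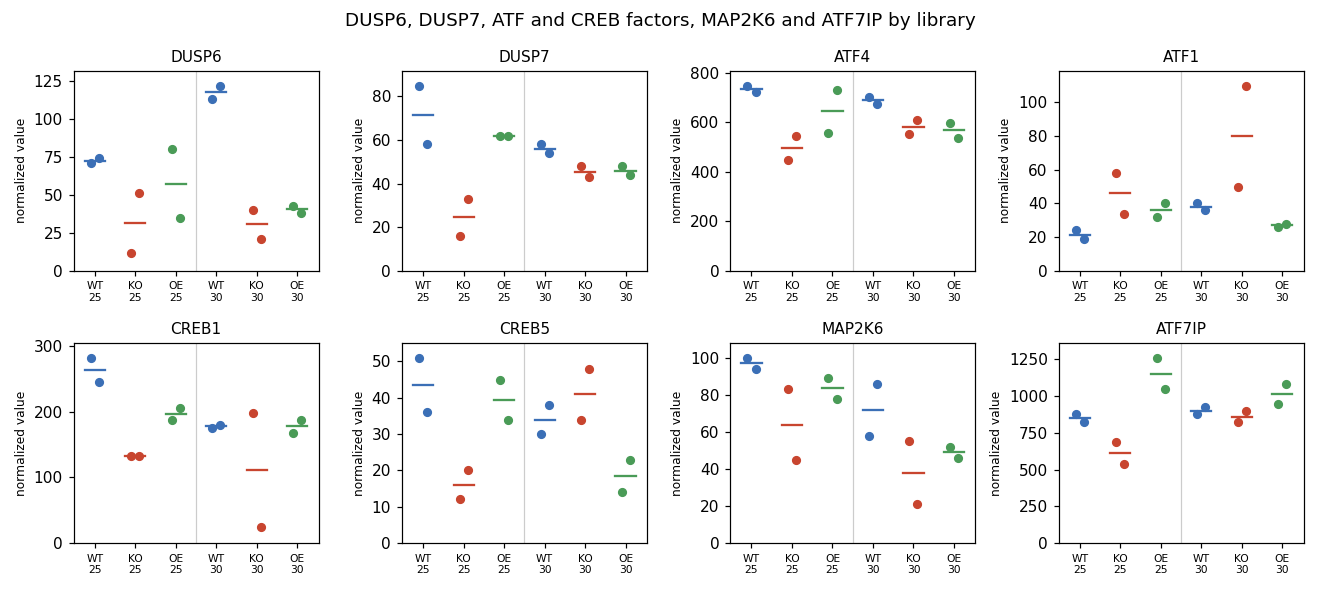
Each panel shows a member; the y axis is the normalized value from 0, points are the 2 libraries of each genotype and day, and bars are their mean. DUSP6, DUSP7 and ATF4 lie lower in all 4 KO libraries than in the 4 WT libraries, and the CREB1 mean in KO at day 30 rests on values of 198 and 24.

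Because DUSP6 is a feedback gene of ERK signalling, a list of other ERK feedback and target genes that are no members was set beside it, of which the tables list 13 of 22. Averaged over the days, none was called between KO and WT; 10 were lower and 3 higher, 5 of them lower at an unadjusted p under 0.05 and 0 higher (8.16% and 7.01% of all genes), and the median was -0.32. The 5 were SPRY1, IL17RD and SPRED1, which like DUSP6 restrain the ERK cascade, EPHA2, an ephrin receptor, and CCND1, cyclin D1. SPRY1 read 244, 322, 184 and 229 in WT, 76, 96, 98 and 52 in KO and 148, 82, 50 and 47 in OE, so all KO and OE libraries lay below all WT libraries. Its log2 fold change was -1.61 for KO against WT (limma, adjusted p = 0.0738) and -1.70 for OE against WT (adjusted p = 0.0344), the latter passing the threshold. IL17RD (Sef), a membrane inhibitor of FGF signalling, read 1258, 1157, 708 and 788 in WT, 579, 710, 354 and 345 in KO and 700, 400, 280 and 241 in OE. It was -1.002 for KO against WT (limma, adjusted p = 0.0846) and fell by 1.35 on the log2 scale for OE against WT (adjusted p = 0.0139). SPRY1 and IL17RD were the 2 of 13 called for OE against WT over both days, both lower, where 0.158% of all genes were called. The list was chosen with earlier results of these data known. KO and OE are each set against the same WT libraries here, so these are not independent comparisons.

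**Figure D5:**
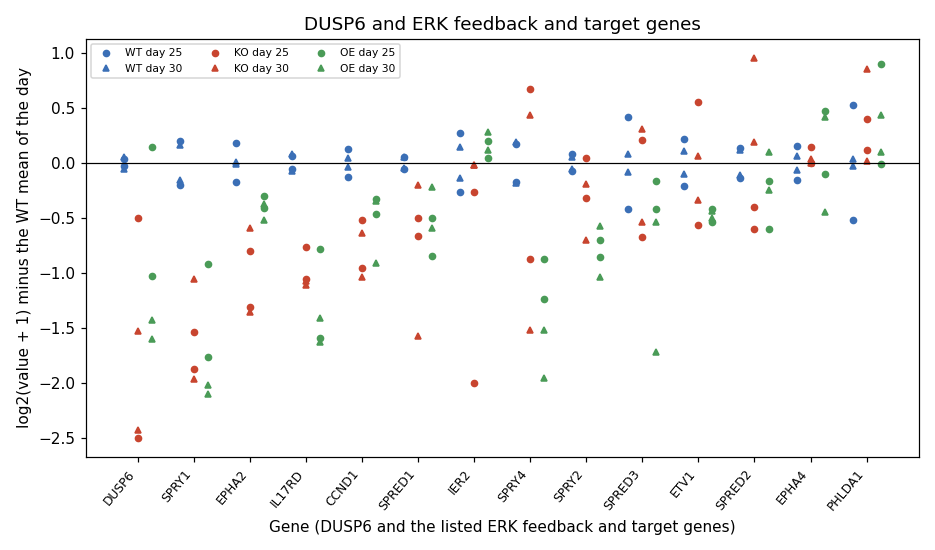
The x axis gives DUSP6 and the 13 listed ERK feedback and target genes in order of their mean in KO; the y axis is log2(value + 1) minus the WT mean of the same day, circles are day 25 and triangles day 30 libraries. KO and OE points lie below the WT points for SPRY1, EPHA2, IL17RD, CCND1 and SPRED1, and fall on both sides of zero for EPHA4 among others.

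The negative feedback genes were not all low: SPRY2 was at -0.29, SPRY4 at -0.32 and SPRED2 at 0.03 for KO against WT. In OE, however, SPRY4 read 20, 26, 16 and 22, below every WT library (43 to 74), and SPRY2 read 71, 64, 72 and 52, also below every WT library (104 to 123); for OE against WT neither was called, at -1.40 (limma, adjusted p = 0.367) and -0.79 (adjusted p = 0.209). Of the upstream RAS and RAF genes, 19 of 22 were listed and none was called in the 3 comparisons of genotypes over both days, nor was any of the 9 of 11 listed kinases downstream of MAP kinases. Of the inputs to JNK and p38, 16 of 21 were listed and none was called at 2-fold. MAPKBP1 had the smallest adjusted p of these for OE against KO over both days, at -0.82 (limma, adjusted p = 0.0429). It read 150 to 211 in KO and 88 to 124 in OE. Of the 16, 10 were higher and 6 lower in that comparison.

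Markers of cell states differed between the same groups. The 6 of 6 listed markers of cycling cells were all lower in KO than in WT over both days, 4 of them at an unadjusted p under 0.05 (8.16% of all genes), none called; their summed value was 2258 to 2526 in WT, 1256 to 1585 in KO and 2545 to 2850 in OE at day 25, and 1674 to 2040, 1261 to 1828 and 2439 to 2811 at day 30. The 5 of 8 listed radial glia markers were also lower in KO, 1 at that p. The 7 of 8 listed hypoxia and glycolysis genes were lower in KO as well, 3 at that p, and their sum ran from 1904 to 5553 within the KO day 30 pair. For OE against KO, 5 markers were called (2.22% of all genes): the cycling genes MKI67 (log2 fold change 1.55) and BUB1, the progenitor factor SOX2 (1.27) and the hypoxia gene PDK1 were higher, and the tight junction gene CLDN1, on the choroid plexus list, was lower at -3.20 (limma, adjusted p = 0.00212). The neuronal NEFL was at -0.87 (limma, adjusted p = 0.0456, under 2-fold) and the mesenchymal COL1A2 at -1.63 (adjusted p = 0.0578). CLDN1 and NEFL did not stand for their lists. Of the 7 listed choroid plexus genes, 5 were higher in OE than in KO and 2 lower (median 0.19). Of the 8 neuronal genes, 5 were higher and 3 lower (median 0.04). The 2 of 8 listed mesenchyme genes were both lower. The part of these markers in the members' and ERK feedback values was not tested. In bulk RNA, fewer cells of a type and less RNA per cell cannot be told apart.

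Among the ATF factors, ATF4 had lower and ATF1 higher values in KO. ATF4 (chr22:39519695-39522683, plus strand), the factor of the integrated stress response that turns on amino acid synthesis and transport, read 748, 721, 702 and 674 in WT, 448, 546, 552 and 607 in KO and 558, 732, 598 and 536 in OE. All KO libraries lay below all WT libraries, and OE spanned both. The log2 fold change was small, -0.41 ± 0.13 (SE; limma, adjusted p = 0.21). Of 20 listed ATF4 target genes out of 26, 4 were lower in KO at an unadjusted p under 0.05 and 0 higher (8.16% and 7.01% of all genes), with none called. They were ASNS at -0.97, GPT2 at -0.67, SLC7A5 at -0.66 and SHMT2 at -0.64, enzymes and a transporter of amino acid metabolism. ASNS read 92 and 20 in the KO pair of day 30, against 78 and 112 in WT. Of all 20 targets, 12 were lower and 8 higher in KO over both days, with a median of -0.19. The median was -0.28 at day 25 and -0.07 at day 30. For OE against KO over both days, 6 of the 20 were higher at that p and 0 lower, where 11.5% of all genes were higher, and none was called. SHMT2 came closest at 0.90 (limma, adjusted p = 0.0748). The days differed. At day 25, 5 were higher at that p and 0 lower (9.31% and 8.5% of all genes), with a median of 0.38. At day 30, 1 was higher and 2 lower (5.9% and 5.01% of all genes), with a median of -0.03. SLC7A11, the cystine transporter that ATF4 also drives, went the other way in KO against WT, at 0.74.

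ATF1, a close relative of CREB1, was the only member with a higher value in KO at an unadjusted p under 0.05 in the mean of both days. It read 24, 19, 40 and 36 in WT, 58, 34, 50 and 110 in KO and 32, 40, 26 and 28 in OE. At each day both KO libraries lay above both WT libraries, though the ranges over both days overlapped. The log2 fold change was 0.99 ± 0.30 (SE; limma, adjusted p = 0.197) for KO against WT and -0.87 ± 0.30 (adjusted p = 0.127) for OE against KO. Without KO day 30 replicate 1 these values were 1.27 and -1.15. Without KO day 30 replicate 2, the library at 110, they shrank to 0.706 and -0.585. CREB1 (chr2:207529737-207605988, plus strand) read 282, 245, 175 and 180 in WT, 132, 132, 198 and 24 in KO and 188, 206, 168 and 188 in OE. Its log2 fold change for KO against WT was -1.16 ± 0.47 (SE; limma, adjusted p = 0.283), and this value turned on 1 library: it was -0.42 without KO day 30 replicate 2 and -1.91 (adjusted p = 0.00105) without KO day 30 replicate 1. ATF2, a direct JNK substrate and dimer partner of c-JUN, was at 0.23 (95% interval -0.13 to 0.60), and ATF6, the membrane-bound factor of the unfolded protein response, at 0.04.

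CREB5, a bZIP factor that can pair with c-JUN, took a different order of the groups at each day. At day 25 it read 51 and 36 in WT, 12 and 20 in KO and 45 and 34 in OE, and at day 30 it read 30 and 38, 34 and 48, and 14 and 23. KO was thus the low group at day 25 and OE the low group at day 30. KO against WT was -1.41 ± 0.41 (SE; limma, adjusted p = 0.206) at day 25 and 0.25 ± 0.41 (adjusted p = 0.85) at day 30, and the difference between these effects was 1.66 ± 0.58 (SE; adjusted p = 0.802), not called. CREB5 was singled out after its values were seen.

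ATF7IP (chr12:14365676-14502931, plus strand), which the name rule takes in as an ATF7-interacting protein and which works with the histone methyltransferase SETDB1, was the only member with an adjusted p under 0.05 at any fold, where 3.3% of all genes had one for OE against KO. It read 877, 824, 877 and 926 in WT, 689, 538, 824 and 898 in KO and 1261, 1046, 948 and 1084 in OE. Every OE library lay above every library of the other genotypes. The log2 fold change for OE against KO was 0.58 ± 0.12 (SE; 1.49-fold; limma, adjusted p = 0.0333), under the 2-fold threshold, with 0.91 at day 25 and 0.24 at day 30. CREB3L2, a membrane-bound CREB factor that controls secretory genes, was the next by p for OE against KO, at -0.78 ± 0.24 (SE; limma, adjusted p = 0.0948); it read 140, 167, 95 and 148 in KO and 76, 70, 98 and 72 in OE, with 1 OE library inside the KO range. Of the 13 of 19 listed CREB partners and targets, 2 were called for OE against KO, where 2.22% of all genes were, both lower: VGF, a neuropeptide precursor, at -2.28 (adjusted p = 0.00982) and PPARGC1A, a coactivator of mitochondrial genes, at -1.23 (adjusted p = 0.0327).

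Few members had genotypes whose 4 libraries did not overlap. Between KO and WT they were 3 of 60 (DUSP6, DUSP7 and ATF4, all lower), where 5.88% of all genes did not overlap and 3.14% were lower without overlap. Between OE and KO they were 4 (MAPK6, MAPK7 and ATF7IP higher, MAPK9 lower), where 9.68% of genes did not. Between OE and WT they were 7 (MAPK7, ATF7IP, DUSP12 and ATF7 higher, MAP2K4, MAP3K20 and DUSP4 lower), where 8.47% of genes did not. Leaving out libraries can only keep or add such members. Without KO day 30 replicate 2, KO day 25 replicate 2 or both, the count for KO against WT was 5, 7 and 12, where 9.33%, 10.0% and 17.8% of all genes did not overlap.

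From day 25 to day 30, averaged over the genotypes, 0 of 60 members were called, where 0.0% of all genes were, and 4 had an unadjusted p under 0.05, where 11.3% of genes did. MAP3K12 (DLK), the kinase that starts JNK signalling in stressed axons, read 130, 128, 140, 138, 115 and 120 at day 25 and 111, 94, 96, 105, 82 and 68 at day 30, in the order WT, KO, OE. It was the only member whose 6 libraries of day 25 and 6 of day 30 did not overlap, where 0.769% of all genes did not, and its log2 fold change was -0.48 ± 0.13 (SE; limma, adjusted p = 0.256). MAP2K6 was lower at day 30, at -0.68 (adjusted p = 0.366), DUSP12 higher at 0.60 (adjusted p = 0.342) and MAPK3 higher at 0.51 (adjusted p = 0.426). For the difference of KO against WT between the days, no member passed the threshold, where 0.0% of all genes passed; 3 members (CREB5, DUSP7 and DUSP3) had an unadjusted p under 0.05, where 5.63% of all genes did.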

How the data were processed

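RNA-seq was performed on 12 ThO libraries, while 11 ATAC-seq and CUT&Tag samples were left aside. For each library, the authors deposited a table with Ensembl identifier, position, symbol and 1 value per gene, a normalized score rounded to whole numbers; the submitters' processing notes name bcl2fastq, Bowtie2, RSEM and hg19, while the positions match GRCh38 (9386 symbols were found in RefSeq GRCh38.p14, each overlapping its place there). How the deposited score was normalized is not given in the sources used here. Its identical minimum, median and maximum in every library, with totals from 1788282 to 1798596, mean that the median gene cannot differ between libraries and that a value depends on the ranks of other genes. All 9497 genes exceed 10 in every library, so the tables hold no gene that was low in any of them. The count models planned for raw counts were not used.

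Values were fitted as log2(value + 1) with limma 3.58.1 (R 4.3.3), 1 mean for each of 6 groups, 6 residual and 5.29 prior degrees of freedom and an intensity trend; a filter of at least 1 in at least 2 libraries removed 0 genes. P-values are two-sided and adjusted (Benjamini-Hochberg) across the whole table, contrast by contrast. Fold changes are on the log2(value + 1) scale, which understates the change of low genes. The change of the KO effect from day 25 to day 30 was called at an adjusted p under 0.05 alone. The paper states that its experiments were done in several separate batches, but nothing links the libraries of a group to separate cultures. P-values therefore measure the spread between libraries, which may be technical. Members and gene lists were chosen with earlier results of these data known. Named were, besides JUN, the 5 members of smallest p in each of 4 contrasts, kinases and factors fixed by role, and members without overlap at 2-fold; other members are given as examples of their role. The fit was tested on simulated data. How reads of pseudogene copies, as ATF4 has, were assigned is not given in the sources used here. The values of 1 member are not reported here; it enters the counts and medians and is left out of the plots.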

Additional observations from a re-analysis of the deposited data

How the results depend on the processing

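Over pseudocounts of 0.1 and 5, no filter, a filter on a mean of 50 or more (which removes ATF1 and DUSP12), median centring, quantile normalization, library weights, no intensity trend, only the libraries compared and the replicate block, 0 members were called in each of the 11 comparisons. Of 177 recomputed counts, 165 stayed and 12 differed, each of these 12 with a single KO library left out. The 165 include settings that could not change a count. The filter had removed 0 genes and all libraries share 1 median, so no filter and median centring repeat the main fit. Quantile normalization also started from libraries with the same minimum, median and maximum. The same applies to the recomputed values of named members below. With single libraries left out, the counts ranged for KO against WT from 0 to 1 at day 25 (DUSP7 without KO day 25 replicate 2), from 0 to 6 at day 30 (without KO day 30 replicate 1) and from 0 to 5 over both days (ATF1, DUSP6, MAP2K6, MAP3K13 and CREB1 without KO day 30 replicate 1). For OE against KO they ranged from 0 to 3 at day 25 (without KO day 25 replicate 1; 1 without replicate 2), from 0 to 9 at day 30 and from 0 to 6 over both days (both without KO day 30 replicate 1; over both days 2 and 1 without KO day 25 replicate 1 and 2). They ranged from 0 to 1 for the days and for the difference of the KO effect (CREB1 without KO day 30 replicate 1). The cause was not tested; each such fit leaves 1 library in its group, which is assumed to vary like the others. Of 606 recomputed values of named members, 592 kept their direction and call, 7 passed the threshold and 7 turned in sign, all with a library left out: MAPK9 for KO against WT ranged from -0.066 to 0.191 and MAP2K2 from -0.065 to 0.088. Members at an unadjusted p under 0.05 ranged over all settings from 4 to 20 for KO against WT over both days, from 5 to 31 for OE against KO and from 1 to 13 for OE against WT. Same-numbered libraries did not deviate together (correlations from -0.214 to 0.262, 1 of 15 above 0.1), so the replicate block is given here alone: with it DUSP6 for KO against WT was -1.74 (limma, adjusted p = 0.213) and 0 members were called. Members without overlap for OE against KO numbered 6, 8 and 13 without KO day 30 replicate 2, KO day 25 replicate 2 and both, where 14.0%, 14.0% and 22.0% of genes did not overlap; such counts can only stay or grow as libraries leave, and these settings were chosen after seeing the data. DESeq2 was not run, since the tables hold no counts.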
